A study of Mus musculus with 20 samples.

Results

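Mouse embryonic fibroblasts exposed to actinonin for 72 h were compared with the same cells exposed for 6 h, to describe which transcripts reversed, faded, held or built up between the early and the last time of the exposure. The comparison used 8 of the 20 samples of the study, 4 of 72 h and 4 of 6 h, chosen by their labels alone. Every treated group received actinonin at 150 µM, and the control group of 4 samples, which set the reference for the change at each time, received the ethanol carrier at 3 µl/ml. All groups were fibroblasts of a Balb/c background, cultured from embryos and grown in medium with serum and uridine. The other 8 samples, of 24 h and 48 h, entered the fit and served to place the changes in time. Each sample pooled RNA from 4 plates, and the 4 samples of a group are given as independent. Since the labels give no origin of the separate cultures, p-values here reflect only the spread among the samples, which may be technical. The control has a time of 0 h and no stated harvest time, and every sample of 72 h spent more time in culture than those of 6 h. Time in culture and time in actinonin can therefore not be told apart.

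The antibiotic actinonin, a hydroxamate, blocks peptide deformylase, which takes the formyl group off the first methionine of proteins made by bacteria and mitochondria. Mammalian cells whose mitochondria fail to make or fold proteins are known to phosphorylate eIF2 alpha. This lowers general translation and favours ATF4, a transcription factor that switches on genes of amino acid supply, tRNA charging and stress hormones, a programme called the integrated stress response. Uridine in the medium lets cells with a failing respiratory chain go on making pyrimidines.

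Each sample was read in its own colour channel of an array that held 62976 spots and 2 samples. Levels below are log2 intensities after normalisation, with the fitted effects of dye and slide removed. Statements on overlap and spread refer to these values, and not all of them hold before that removal. Per-sample values are given in the order replicate 1 in Cy3, replicate 1 in Cy5, replicate 2 in Cy3 and replicate 2 in Cy5. Differences are log2 differences, 72 h minus 6 h unless stated, ± standard error. No array held both times. The 72 h samples all lay on slide 2 and shared their arrays with samples of 24 h, whereas 2 of the 6 h samples (1 in Cy5 and 2 in Cy3) lay on slide 1 with controls and the other 2 on slide 2 with samples of 48 h. Differences within slide 2, of 4 samples against 2, are therefore given beside those of the whole fit. Spots well above background made up 50.8% to 58.7% in the samples of 9 arrays and 66.4% and 70.5% in the control and 48 h samples of the remaining array. All 14 fibroblast markers were measured, and their summed intensity was 823866 to 991634 at 6 h and 654411 to 703798 at 72 h. For macrophages and leukocytes 7 of 12 markers passed the filter on dim probes, and Ptprc, Cd68, Aif1, Tyrobp and Cd79a did not. For endothelium 5 of 10 passed, without Cdh5, Tek, Tie1, Emcn and Cldn5, at a summed intensity of 8927 to 9516 at 6 h and 10743 to 11505 at 72 h. This sum mostly follows Egfl7 (0.64), with Vwf at 0.30, Pecam1 at -0.05, Esam at -0.21 and a median difference of -0.0105. A lower summed level of markers in bulk RNA can reflect fewer cells of a type or less RNA per cell, which cannot be told apart here.

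Between 6 h and 72 h, the expression of 10342 of 24250 tested genes and transcripts differed at an adjusted p under 0.05. Of these, 5213 were higher at 72 h (21.5% of those tested) and 5129 were lower (21.2%). Among the 14242 named genes, from which all members of the gene lists below come, 23.3% were higher and 26.5% lower. Most differences were small, with a median size of 0.347 among those called, and 216 transcripts rose and 254 fell by at least 2-fold. At 6 h 3324 transcripts were above the control (13.7%) and 2699 below it (11.1%). At 72 h 6109 were above (25.2%) and 5469 below (22.6%). These 3 comparisons share samples, so the classes that follow from their calls are descriptions.

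A transcript was called reversed where it differed from the control in opposite directions at 6 h and at 72 h and also differed between those times. Reversal was seen for 656 transcripts, of which 347 were higher at 6 h and lower at 72 h, and 309 were lower and then higher. Both sides of a reversal were mostly small, with a median change of 0.237 at 6 h and -0.322 at 72 h for the transcripts that went up and then down. Only 1 transcript that went up and then down, and 2 that went down and then up, were past 1.5-fold at both times. Lrrn3 was the named gene among these 3. A further 1077 transcripts faded, which means that less than 50% of the 6 h change was left at 72 h, and 103 faded in part. Those that had risen went from a median of 0.298 at 6 h to 0.0817 at 24 h and 0.00597 at 72 h. A change built up in 1613 transcripts that had already moved in the same direction at 6 h, and in 5830 that had not been called then. Finally, 1755 transcripts held, in that they were called in the same direction at both times with no called difference between them.

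**Figure D1:**
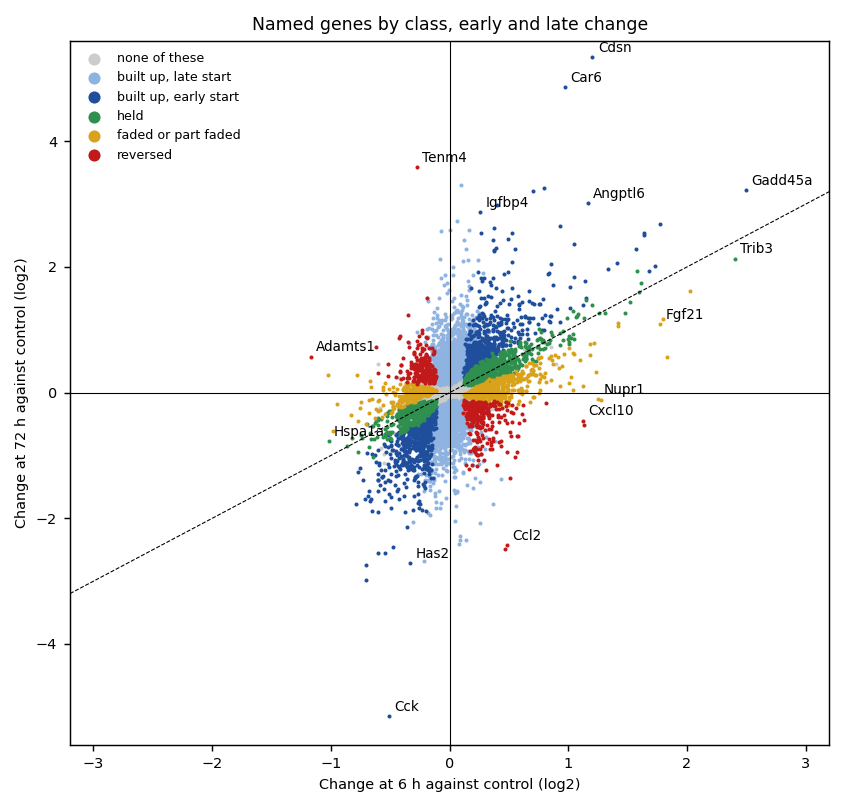
Change of each named gene at 6 h (x axis) against its change at 72 h (y axis), both as log2 differences from the carrier control; colours mark the classes and the dashed line marks equal change at both times. Cdsn, Car6 and Cck lie far from the dashed line, Nupr1 lies near 0 at 72 h, and Trib3 lies close to the line.

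Most transcripts that built up had moved by 24 h. Among the transcripts that built up without a call at 6 h, 75.3% of those that rose and 73.6% of those that fell had at least 50% of their 72 h change at 24 h. With an early start these shares were 92.1% and 92.3%. The 24 h samples shared their arrays with those of 72 h, and the part of this sharing in the likeness of both times was not tested.

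The 10 largest rises and falls come from genes whose 6 h and 72 h values did not overlap. Their separation was thus set by the choice. The largest rise was that of Cdsn, the gene of corneodesmosin, through which cells of the cornified epidermis adhere. Its level was 11.86, 11.73, 11.75 and 11.97 in the 6 h samples and 16.05, 15.87, 16.02 and 15.89 in those of 72 h. Every 72 h sample lay far above every 6 h sample, and the difference of 4.14 ± 0.11 was 17.6-fold (limma, adjusted p = 2.77e-14; 4.04 within slide 2). Cdsn had already risen by 1.2 at 6 h and was 5.34 above the control at 72 h. Of 12 epithelial markers 6 passed the filter, without Epcam, Cdh1, Krt8, Krt18, Dsp and Grhl2. The summed intensity of the 6 was 1768 to 2113 at 6 h and 2272 to 2619 at 72 h. This sum mostly follows Krt19 (0.60), while Cldn7 was at -0.26, Krt5 at -0.19 and Cldn4 at -0.14. The median difference was -0.0954, with 1 marker called higher and 1 lower. The part of these markers in the rise of Cdsn was not tested. Car6, a secreted carbonic anhydrase, measured 7.71, 8.33, 7.72 and 7.78 at 6 h and 11.65, 11.85, 11.77 and 11.89 at 72 h. One of its 6 h samples stood above the other 3, though well below all samples of 72 h, and the difference was 3.89 ± 0.16 (adjusted p = 5.22e-12). Tenm4, a teneurin, a large transmembrane protein of neural development, went from 10.42, 10.66, 10.43 and 10.48 to 14.65, 14.36, 14.32 and 14.14. Tenm4 was slightly below the control at 6 h (-0.28, adjusted p = 0.0162) and 3.59 above it at 72 h, so that it also counts as reversed. These values come from its brightest probe. Another Tenm4 probe was at 0.22 and not called (adjusted p = 0.208), and the mean over probes rose by 2.04, so the size of the rise depends on the probe.

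The other genes of the 10 largest rises had different starting points. B4galnt2, a glycosyltransferase, rose by 3.22 ± 0.09 with a change of only 0.09 at 6 h. The endopeptidase Ecel1 rose by 2.67 ± 0.11 and the actin-binding protein Avil by 2.58 ± 0.08, and neither was called at 6 h. Rspo3, a secreted amplifier of Wnt signalling, measured 9.70, 10.08, 9.34 and 9.63 at 6 h and 12.69, 12.36, 12.33 and 11.98 at 72 h. Its values spread more within each group than those of Cdsn, and the difference was 2.65 ± 0.15 (limma, adjusted p = 3.00e-10). Igfbp4, a secreted protein that binds insulin-like growth factors, went from 7.71, 7.81, 7.66 and 7.91 to 10.50, 10.31, 10.35 and 10.31. All 4 of its 72 h samples were thus about equally high, and its rise of 2.61 ± 0.08 was 6.10-fold. The aldo-keto reductase Akr1b7 rose by 2.59 ± 0.13. Cox6a2, the heart and muscle isoform of a subunit of cytochrome c oxidase, rose by 2.50 ± 0.14, and by 2.27 within slide 2. Cxadr, the receptor of coxsackieviruses and adenoviruses and a protein of cell junctions, rose from 8.54, 8.58, 8.36 and 8.43 to 10.84, 10.97, 11 and 10.95. Another Cxadr probe rose by 0.77, against 2.47 for the brightest.

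**Figure D2:**
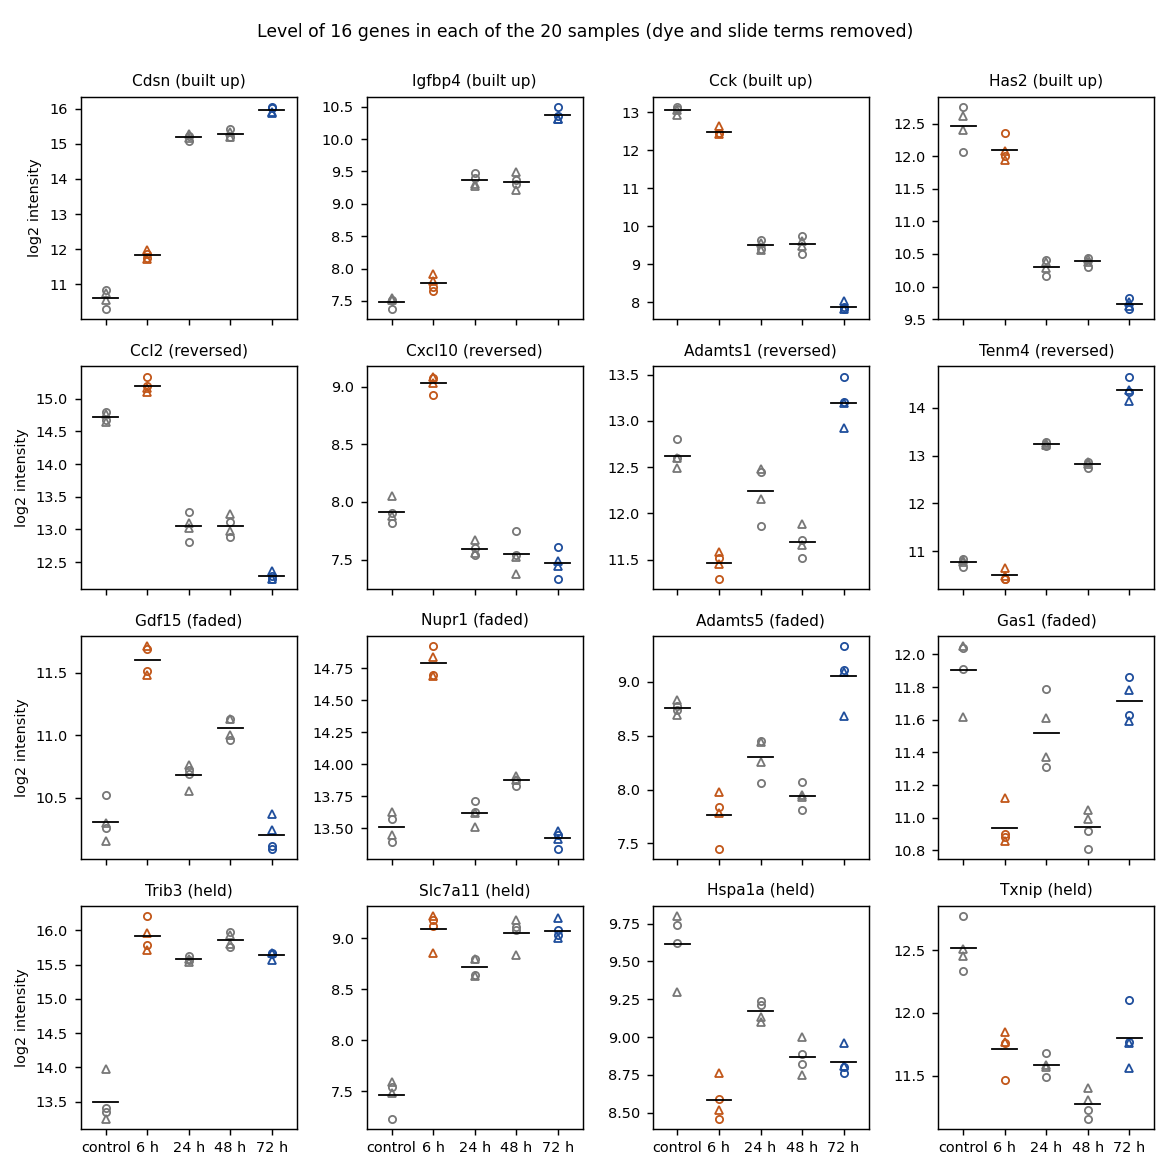
Level of 16 genes in each sample as log2 intensity with dye and slide terms removed (y axis), by time in actinonin (x axis); circles are Cy3 samples, triangles Cy5 samples and bars group means, and the rows show built up, reversed, faded and held genes. For Cdsn, Cck and Ccl2 the 72 h samples stand clear of the 6 h samples, and for Slc7a11 they overlap.

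The steepest fall was that of Cck, the gene of the peptide hormone cholecystokinin. It measured 12.45, 12.63, 12.47 and 12.44 at 6 h and 7.87, 7.81, 7.82 and 8.03 at 72 h. The groups were wide apart, and Cck fell by 4.64 ± 0.10 on the log2 scale, or 24.9-fold (adjusted p = 3.57e-15; -4.56 within slide 2). Another neuropeptide gene, Vip, fell by 2.03 ± 0.11, and Adcyap1r1, a receptor of the related peptide PACAP, fell by 1.98 ± 0.11. All 3 had been below the control at 6 h, Cck at -0.51, Vip at -0.71 and Adcyap1r1 at -0.47. The 8 of 11 neural and glial markers that were measured, without Rbfox3, Syt1 and Olig2, had a summed intensity of 43701 to 47877 at 6 h and 37550 to 40470 at 72 h. Their median difference was -0.0907, with 1 called higher and 3 lower, and their part in these falls was not tested.

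Has2, the enzyme that makes hyaluronan for the matrix around fibroblasts, went from 12.01, 12.08, 12.36 and 11.94 to 9.65, 9.76, 9.82 and 9.70. With dye and slide terms removed, no 72 h sample came within 2 log2 units of a 6 h sample. The difference was -2.38 ± 0.13 (limma, adjusted p = 1.27e-10). The transporter gene Slco4a1 fell by 2.49 ± 0.12 and the cardiac troponin T gene Tnnt2 by 2.37 ± 0.09. Of 12 muscle markers 5 were measured, Tnnt2 among them, at a summed intensity of 13174 to 15605 at 6 h and 10308 to 12130 at 72 h. This sum falls with Tnnt2 itself, the only 1 of the 5 that was called, and their median difference was 0.0188. Acsbg1, an acyl-CoA synthetase, fell by 2.34 ± 0.18, with 10.05, 9.39, 10.42 and 10.04 at 6 h, the widest spread among these genes. Il1rl1, which encodes the receptor of interleukin-33, fell by 2.00 ± 0.14, and Lce1g, a cornified envelope gene with near-identical copies, by 2.29 ± 0.14. Rasgrf1, an exchange factor of Ras, fell by 2.47 ± 0.09 at its brightest probe, but another probe of the same gene rose by 0.30 (adjusted p = 0.0377), so its direction depends on the probe. Ccbe1, a secreted protein of lymphatic growth, went from 10.41, 10.25, 10.95 and 10.53 to 8.22, 7.97, 8.22 and 8.08. Other Ccbe1 probes fell by 0.61 and 1.01, less than the brightest, and another of Il1rl1 by 1.00.

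Some genes were above background at only 1 of the 2 times. Among named genes, 27 were above background in all 4 samples of 72 h and in none of 6 h, and 19 showed the converse. Try5 and Try4, trypsin genes with near-identical copies, were at least 3.74-fold and at least 2.54-fold higher at 72 h, and Nrip2, a nuclear receptor interacting protein, at least 2.77-fold. Each bound sets the mean of the bright group against the lowest signal that counts as above background, or against the dim probe's own signal where that was higher. Mcpt8, a protease known from mouse basophils, was at least 2.63-fold lower at 72 h, and the granzyme gene Gzme, which has close paralogs, at least 2.24-fold. The brightest probe of Ifi27l2b, an interferon-inducible gene, was at least 1.97-fold lower, but another was at -0.05 and not called (adjusted p = 0.704). Another probe of Nrip2 rose by 0.77.

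Of the 10 largest falls of named genes, those of the chemokine genes Ccl2 and Ccl7 followed an early rise. Ccl2, which attracts monocytes, measured 14.68, 14.65, 14.79 and 14.76 in the control. It measured 15.19, 15.16, 15.34 and 15.10 at 6 h and 12.24, 12.37, 12.29 and 12.24 at 72 h. Each group was tight and the 3 did not overlap on these values. Before dye and slide terms were removed, the control (13.80 to 14.82) and 6 h samples (14.41 to 15.16) overlapped. Ccl2 was at 0.49 against the control at 6 h and at -2.43 at 72 h. The difference was -2.92 ± 0.10 (limma, adjusted p = 4.92e-13, and -2.86 within slide 2). Ccl7, a chemokine encoded beside Ccl2 in the same cluster, went from 14.65, 14.54, 14.82 and 14.61 to 11.68, 11.72, 11.60 and 11.78, with changes of 0.47 at 6 h and -2.50 at 72 h. Cxcl10, an interferon-inducible attractant of T cells, had the larger early rise. It measured 7.82, 8.05, 7.90 and 7.88 in the control, 9.08, 9.09, 8.93 and 9.03 at 6 h and 7.61, 7.49, 7.33 and 7.44 at 72 h. All of its 72 h values lay below all control values, and the difference from 6 h was -1.57 ± 0.09 (adjusted p = 3.44e-10). Ccl9 showed no early change (0.08) and was at -2.41 at 72 h.

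These genes belong to a list of 27 inflammatory cytokines and targets of NF-kB, a transcription factor of inflammation. From 6 h to 72 h, 19 of them fell and 2 rose, the acute phase gene Saa3 by 0.34 and the iron carrier gene Lcn2 by 0.32. The median difference was -0.42, against -0.00858 over all genes tested. In shares, 70.4% fell and 7.41% rose, against 21.2% and 21.5% of all genes tested. Reversal was seen for 6 members, among them parts of the NF-kB pathway itself. Nfkbia, its inhibitor, measured 14.44, 14.40, 14.49 and 14.42 at 6 h and 13.28, 13.26, 13.20 and 13.33 at 72 h, a fall of 1.17 ± 0.06. The subunit genes Nfkb2 and Relb differed by -1.06 and -0.99, after rises of 0.63 and 0.81 at 6 h. Ptgs2, the inducible cyclooxygenase, fell by 1.48 and Il6 by 0.89, and neither was called at 6 h. The macrophage and leukocyte markers had a summed intensity of 41085 to 47668 at 6 h and 35706 to 39905 at 72 h, most of it from Itgam. Their median difference was only -0.0102, with 2 called lower and 0 higher, and their part in the result was not tested. Of 7 measured, Cd14 fell by 1.40. Itgam was at -0.22, a call lost in 7 of 26 alternatives, and its other probes were at -0.10 and 0.15, neither called.

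Other genes that went up and then down came from different functions. Sphk1, which makes the lipid signal sphingosine 1-phosphate, measured 11.01, 10.99, 11.18 and 11.06 at 6 h and 9.90, 9.78, 9.79 and 9.72 at 72 h. It had risen by 0.57 and ended 0.69 below the control. The protease inhibitor gene Serpina3f, which has close paralogs, differed by -1.87 ± 0.10 and the splicing regulator gene Rbfox1 by -1.51 ± 0.07. Mmp9, a gelatinase, had the widest spread at 6 h (9.27, 8.72, 9.57 and 9.22 against 8.03, 7.96, 7.96 and 7.74 at 72 h) and differed by -1.26 ± 0.18. Tcim differed by -1.21 ± 0.07 (-0.35 at another probe), and the antisense transcript Map2k3os by -1.57 ± 0.12. Lef1, a transcription factor of Wnt signalling, went from 0.41 above the control to 0.47 below it, and the clock gene Arntl from 0.56 above to 0.25 below.

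In the opposite direction, Adamts1, a secreted protease of the matrix, measured 12.80, 12.49, 12.60 and 12.60 in the control. It went to 11.52, 11.58, 11.29 and 11.45 at 6 h and to 13.48, 13.19, 13.20 and 12.92 at 72 h. On these values all 6 h samples lay below all controls and all 72 h samples above them. The difference was 1.74 ± 0.14 (limma, adjusted p = 2.20e-08, and 1.72 within slide 2). Before dye and slide terms were removed, the controls (13.43, 13.09, 12.61 and 12.59) overlapped with the 72 h samples (13.49, 13.18, 13.21 and 12.91). The course was not even, since Adamts1 was at -0.39 at 24 h and at -0.93 at 48 h. Of the 6 h samples, 2 shared arrays with samples of 48 h. The part of this sharing in dips at 48 h was not tested. Lrrn3, a neuronal leucine-rich repeat protein, went from -0.62 to 0.73, with -0.45 at 48 h. Cirbp, the cold-inducible RNA-binding protein, measured 11.73, 11.62, 11.48 and 11.89 at 6 h and 13.07, 12.93, 12.93 and 12.91 at 72 h, a rise of 1.30 ± 0.10. The zinc finger gene Zfp467 rose by 0.97 ± 0.10 and the protocadherin gene Pcdhb21 by 0.85 ± 0.08. Cirbp (11.86 to 11.96) and Pcdhb21 (11.12 to 11.34) were also lower at 48 h than in any sample of 24 h or 72 h.

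Several genes that went down and then up are targets of the hypoxia-inducible factor. Bnip3, a protein of the outer mitochondrial membrane that serves mitophagy, measured 11.72, 12.00, 11.56 and 11.71 at 6 h and 13.09, 13.06, 13.05 and 13.09 at 72 h. It passed from 0.42 below the control to 0.90 above it, with a difference of 1.32 ± 0.08 (adjusted p = 5.70e-10). Of 32 genes of glycolysis and the hypoxia response, 15 rose from 6 h to 72 h and 2 fell, Pkm by 0.24 and Pfkfb4 by 0.49. The shares were 46.9% higher and 6.25% lower, against 21.5% and 21.2% of all genes tested. The median was 0.112, from -0.143 at 6 h to 0.0341 at 72 h. Reversed members were Bnip3, Bnip3l, Pfkl, Aldoa, Kdm3a and P4ha1, of which the prolyl hydroxylase P4ha1 went from -0.29 to 0.57 and the glycolytic enzyme Pfkl from -0.33 to 0.43. Car9, a carbonic anhydrase known as a marker of hypoxia, rose by 0.98, Ndrg1 by 1.06 ± 0.07 and the enolase Eno2 by 0.89 ± 0.07. The housekeeping enzymes Gapdh and Pgk1 were at 0.02 and 0.03 with no call. Pdk1, the kinase that shuts off pyruvate dehydrogenase and another known target of this factor, passed from -0.26 at 6 h to 0.76 at 72 h.

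Early rises of the integrated stress response were partly kept and partly lost. Of 39 measured members, 38 had risen at 6 h, with a median of 1.04, and at 72 h 34 were above the control and 1 below, with a median of 0.868. Between both times 16 fell (41%), 9 rose (23.1%) and 14 were not called. Over all genes tested 21.2% were lower and 21.5% higher, and over named genes 26.5% and 23.3%. Nupr1, a small chromatin-associated stress protein, measured 14.92, 14.69, 14.70 and 14.84 at 6 h and 13.34, 13.42, 13.45 and 13.48 at 72 h. Gdf15, a stress hormone that acts on the brainstem to curb feeding, measured 11.69, 11.48, 11.51 and 11.71 and then 10.09, 10.24, 10.11 and 10.37. Both genes were more than 1 log2 unit lower in every 72 h sample than in any 6 h sample, and both came back to the control, at -0.10 and -0.11. Nupr1 differed by -1.35 ± 0.07 (adjusted p = 1.56e-10; -1.46 within slide 2) and Gdf15 by -1.39 ± 0.10 (adjusted p = 4.68e-09; -1.50 within slide 2).

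Members that fell back in part or faded included transcription factors and enzymes. Atf4 itself was 1.05 above the control at 6 h and 0.62 at 72 h, Atf3, a transcription factor induced by stress, 2.02 and 1.61, and Chac1, which degrades glutathione, 1.80 and 1.17. Ddit4, an inhibitor of the growth kinase mTORC1, was at 0.67 and 0.19, Cebpg at 0.61 and 0.21, Jdp2 at 0.76 and 0.29 and the serine synthesis enzyme Psat1 at 0.34 and 0.06. With Nupr1 and Gdf15, these last 4 are the 6 members that faded. Members other than Nupr1, Gdf15, Slc7a3, Gadd45a, Trib3, Cth, Slc7a11 and Fgf21 were chosen for this account after their values were seen. Slc38a2, an amino acid transporter of the plasma membrane, was the member that built up downward, from 0.04 to -0.38.

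The 9 members that rose further, a share near the 21.5% of all genes tested, had different functions. Gadd45a, which encodes a growth arrest protein, measured 12.67, 12.43, 12.43 and 12.64 at 6 h and 13.25, 13.27, 13.16 and 13.31 at 72 h, a rise of 0.72 ± 0.09 on top of 2.50. The transporter of cationic amino acids Slc7a3 rose by 1.13 ± 0.09, the lipoprotein receptor gene Vldlr by 0.71 and the oxidoreductase Ero1a by 0.64. Ppp1r15a, the phosphatase subunit that reverses eIF2 alpha phosphorylation, rose by 0.29, the death gene Bbc3 by 0.28, and Ddit3, which encodes CHOP, by 0.25 (adjusted p = 0.0488). Slc6a9 and Atf5 also rose.

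The 14 held members included genes of amino acid uptake and synthesis. Slc7a11, the cystine importer, measured 9.18, 8.86, 9.12 and 9.22 at 6 h and 9.08, 9.20, 9.03 and 9.0 at 72 h. These values overlapped, and the difference of 0.00 ± 0.10 was not called (adjusted p = 0.983). Cth, which makes cysteine, stood at 1.61 and 1.74 above the control, Asns, which makes asparagine, at 1.01 and 0.81, and the mitochondrial folate enzyme Shmt2 at 0.54 and 0.59. Trib3, a pseudokinase and target of CHOP, was 2.40 and 2.13 above the control. Its difference of -0.27 ± 0.15 was not called in the whole fit (adjusted p = 0.153), but it was -0.475 and called with slide 2 alone.

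**Figure D3:**
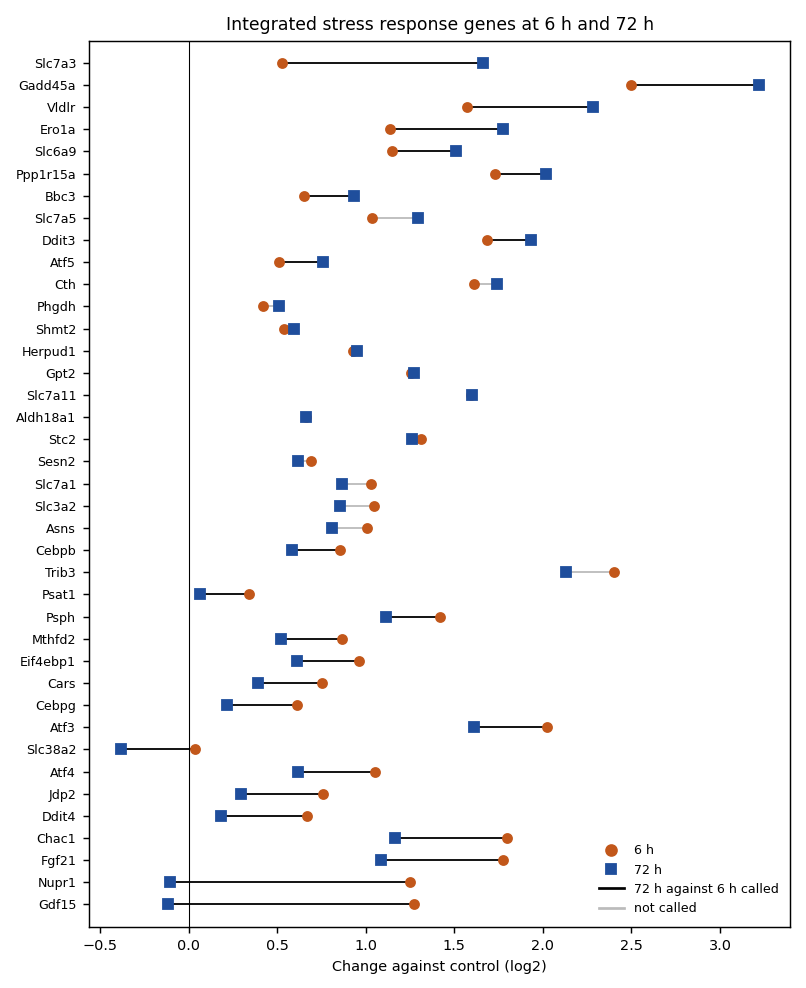
Change of each of the 39 measured integrated stress response genes against the carrier control (x axis, log2) at 6 h (circles) and at 72 h (squares), ordered by the difference between both times; black lines mark called differences and grey lines those not called. Nupr1 and Gdf15 return to about 0, and Slc7a3, Gadd45a and Vldlr move furthest up.

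Promoter windows of some members show a letter pattern of ATF4 target genes. The windows hold 250 bases before and 50 after a gene's start and come from RefSeq (GRCm38.p6). The composite of ATF and C/EBP sites was searched as TGATGNAA on both strands, where N is any base. It lay in 8 of the 34 members with a window (23.5%) and in 4.0% of all 32851 windows. A match is a description of letters and not evidence of binding. The windows of Nupr1 (chr7:126625421-126625720, minus strand) and Chac1 (chr2:119350992-119351291, plus strand) are shown because these are the members with the smallest adjusted p that hold the pattern. Each is written 5′ to 3′ on the gene's strand, with the match, which lies on the opposite strand, in capitals.
Nupr1: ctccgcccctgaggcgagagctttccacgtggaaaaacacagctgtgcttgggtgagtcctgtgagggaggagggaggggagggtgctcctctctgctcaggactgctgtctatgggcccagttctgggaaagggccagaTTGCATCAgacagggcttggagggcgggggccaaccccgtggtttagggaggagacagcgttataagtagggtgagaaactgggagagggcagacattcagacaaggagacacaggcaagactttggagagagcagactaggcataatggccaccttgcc
Chac1: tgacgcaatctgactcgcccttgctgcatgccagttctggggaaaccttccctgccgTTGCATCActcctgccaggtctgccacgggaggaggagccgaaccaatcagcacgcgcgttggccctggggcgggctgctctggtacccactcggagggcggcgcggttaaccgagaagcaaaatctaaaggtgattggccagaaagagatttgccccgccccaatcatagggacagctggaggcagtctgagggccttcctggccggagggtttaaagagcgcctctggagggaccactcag

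Of the stress hormones, Gdf15 faded, Fgf21 faded in part and Angptl6 built up. Fgf21, a hormone of fasting and mitochondrial stress, measured 8.98, 8.5, 8.70 and 9.12 at 6 h and 7.86, 8.17, 8.14 and 8.25 at 72 h. Its samples of 6 h were more spread, and the difference was -0.69 ± 0.16 (adjusted p = 0.00165; -0.95 within slide 2), which left it 1.09 above the control. Angptl6, a secreted angiopoietin-like protein, went from 12.45, 12.23, 12.29 and 12.53 to 14.27, 14.14, 14.24 and 14.17. It was 1.17 above the control at 6 h and 3.01 at 72 h. Pdf, which codes for actinonin's target in mitochondria, measured 11.24, 11.34, 11.08 and 11.17 and then 10.88, 10.94, 10.83 and 10.86, a fall of 0.33 ± 0.06 (adjusted p = 0.000289).

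Ribosome biogenesis genes, which serve the making of ribosomes in the nucleolus, lost their early rise. Of 40 tested, 29 had risen and 1 had fallen at 6 h with a median of 0.298, and at 72 h 9 were above and 10 below the control with a median of 0.0019. Between both times 28 fell and 1 rose, a share of 70% lower against 21.2% over all genes tested. Ddx21, a nucleolar RNA helicase, measured 12.61, 12.48, 12.72 and 12.60 at 6 h and 11.39, 11.51, 11.47 and 11.45 at 72 h. Ddx21 differed by -1.15 ± 0.09 and was reversed at this probe, as were Nolc1, Nop16 and Tsr1 at theirs. Another probe of Ddx21 fell by 0.19, and another of Nolc1 was at -0.08 and not called. Wdr43 fell by 0.71 ± 0.07, with -0.38 at another probe, and was 1 of 13 that faded. Pes1, a factor of the large ribosomal subunit, was the member that rose, by 0.66. Myc, a transcription factor known to drive such genes, also faded, from 1.00 above the control to 0.15.

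Further early rises faded outside these lists. Arid5a, an RNA-binding protein that stabilises cytokine mRNAs, measured 13.16, 12.99, 13.14 and 13.14 at 6 h and 11.78, 11.88, 11.79 and 11.84 at 72 h. It kept 0.56 of its rise of 1.83, and all its 72 h samples lay below all 6 h samples. The GTPase gene Rab39b fell back by 0.91 ± 0.07, the peptide hormone gene Adm2 by 1.01 ± 0.14 and the repressor gene Nfil3 by 0.59 ± 0.07. Of the cytosolic aminoacyl-tRNA synthetases, which charge tRNAs, 16 of 20 had risen at 6 h and 12 were up at 72 h. Between both times 5 fell and 2 rose (25% and 10%), against 21.2% and 21.5% over all genes tested and 26.5% and 23.3% over named genes. By class 3 faded, 1 faded in part, 2 built up and 8 held. Those that fell were Tars (-0.54 ± 0.09), Cars (-0.36), Farsb (-0.25), Farsa (-0.22) and Mars1 (-0.22), and those that rose were Wars (0.65 ± 0.08) and Eprs (0.58 ± 0.06).

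Early falls also faded. Adamts5, the aggrecan-degrading protease, measured 7.84, 7.98, 7.45 and 7.78 at 6 h and 9.33, 9.09, 9.11 and 8.68 at 72 h. It rose by 1.30 ± 0.14 from -1.02 to 0.28 against the control. Its course dipped at 48 h (-0.83), as did that of Gas1, a growth arrest protein of the cell surface, which was at -0.95 at 6 h, -0.38 at 24 h, -0.95 at 48 h and -0.18 at 72 h. Other Gas1 probes rose by 0.24 or were at 0.31 with no call, against 0.77. The glycogen-targeting subunit Ppp1r3c rose by 1.07 ± 0.13, the vasodilator hormone gene Adm by 0.46 ± 0.08, Fam43a by 0.52 ± 0.10 and Wdr6 by 0.60 ± 0.08.

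All 36 tested genes of G2/M and mitosis were lower at 72 h than at 6 h, against 21.2% of all genes tested. The median difference was -0.803, and the median against the control was -0.173 at 6 h, -1.02 at 24 h, -0.66 at 48 h and -1.01 at 72 h. At 6 h 22 members had already fallen. Birc5, the mitotic protein survivin, measured 15.52, 15.51, 15.47 and 15.54 at 6 h and 14.25, 14.26, 14.30 and 14.35 at 72 h, a fall of 1.22 ± 0.05 (adjusted p = 6.30e-12; -1.24 within slide 2). Cdc20, which activates the anaphase-promoting complex, fell by 1.06 ± 0.06. The centromeric histone gene Cenpa went from 12.80, 12.84, 12.81 and 12.81 to 11.92, 11.92, 11.93 and 11.98, and the midbody kinesin gene Kif23 from 11.90, 11.85, 11.97 and 11.89 to 10.92, 10.89, 10.89 and 10.94. The samples of a group differed by far less than the groups did for each of these genes.

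Many genes of this list are known to carry the cell cycle homology region, bound by the DREAM and MuvB complexes, and CCAAT boxes. The letters TTTGAA, searched on both strands, lay in the windows of 20 of 29 members with a window (69.0%) and of 17.9% of all windows. CCAAT lay in 79.3% and 37.4%. The windows of Cenpa (chr5:30666636-30666935, plus strand) and Kif23 (chr9:61946750-61947049, minus strand) are shown with the match in capitals.
Cenpa: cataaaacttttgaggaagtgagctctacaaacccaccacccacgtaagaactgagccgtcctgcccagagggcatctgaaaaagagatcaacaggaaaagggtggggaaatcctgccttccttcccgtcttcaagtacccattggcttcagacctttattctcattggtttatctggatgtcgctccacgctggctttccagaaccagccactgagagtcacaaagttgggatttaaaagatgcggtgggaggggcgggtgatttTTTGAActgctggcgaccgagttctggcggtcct
Kif23: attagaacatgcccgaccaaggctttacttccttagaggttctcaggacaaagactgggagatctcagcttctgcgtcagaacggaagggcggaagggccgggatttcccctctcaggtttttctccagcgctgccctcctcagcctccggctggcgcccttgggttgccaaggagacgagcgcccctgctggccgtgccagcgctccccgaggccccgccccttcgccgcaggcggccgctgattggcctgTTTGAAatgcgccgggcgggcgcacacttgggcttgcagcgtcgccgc

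Genes of G1/S and DNA replication fell less. Of 43 tested, 22 fell and 2 rose (Gins3 and Mcm2), with a median of -0.169. In shares this was 51.2% and 4.65%, against 21.2% and 21.5% of all genes tested. Tk1, the thymidine kinase of S phase, fell by 0.76 ± 0.05, Cdc45, a part of the replicative helicase, by 0.81 ± 0.06 and Rrm1, a subunit of ribonucleotide reductase, by 0.53 ± 0.05. Of 40 genes listed as core histones of the replication clusters, among them the linker histone gene H1f2, 27 fell and 3 rose. The shares were 67.5% and 7.5%, with a median of -0.892. H3c8 fell by 1.15 ± 0.06 and H4c12 by 1.13 ± 0.07, whereas H2ac18 rose by 1.09 ± 0.07, and H1f2 and H2bc4 also rose. These genes are near-identical copies whose probes can share signal, and most of their mRNAs lack the poly(A) tail on which the amplification was primed.

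Inhibitors of cyclin-dependent kinases moved in different directions. Cdkn1a, the inhibitor p21 and a target of p53, measured 14.10, 13.97, 14.25 and 14.08 at 6 h and 13.72, 13.55, 13.63 and 13.67 at 72 h, a fall of 0.46 ± 0.09 (adjusted p = 0.00039). Cdkn2d fell by 0.52 ± 0.09. Cdkn1b and Cdkn2a rose by 0.30 ± 0.07 and 0.30 ± 0.08. Cdkn1c, Cdkn2b and Cdkn2c were at -0.18, -0.11 and -0.10 and not called, though another Cdkn2b probe fell by 0.25 (adjusted p = 0.00287). Of 30 p53 targets 10 rose and 9 fell, a share of 33.3% and 30% against 21.5% and 21.2% of all genes tested. Perp, a junction protein linked to cell death, rose by 1.15 ± 0.09, and Gtse1 and Ckap2, which also act in mitosis, fell by 0.83 ± 0.06 and 0.60 ± 0.05.

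**Figure D4:**
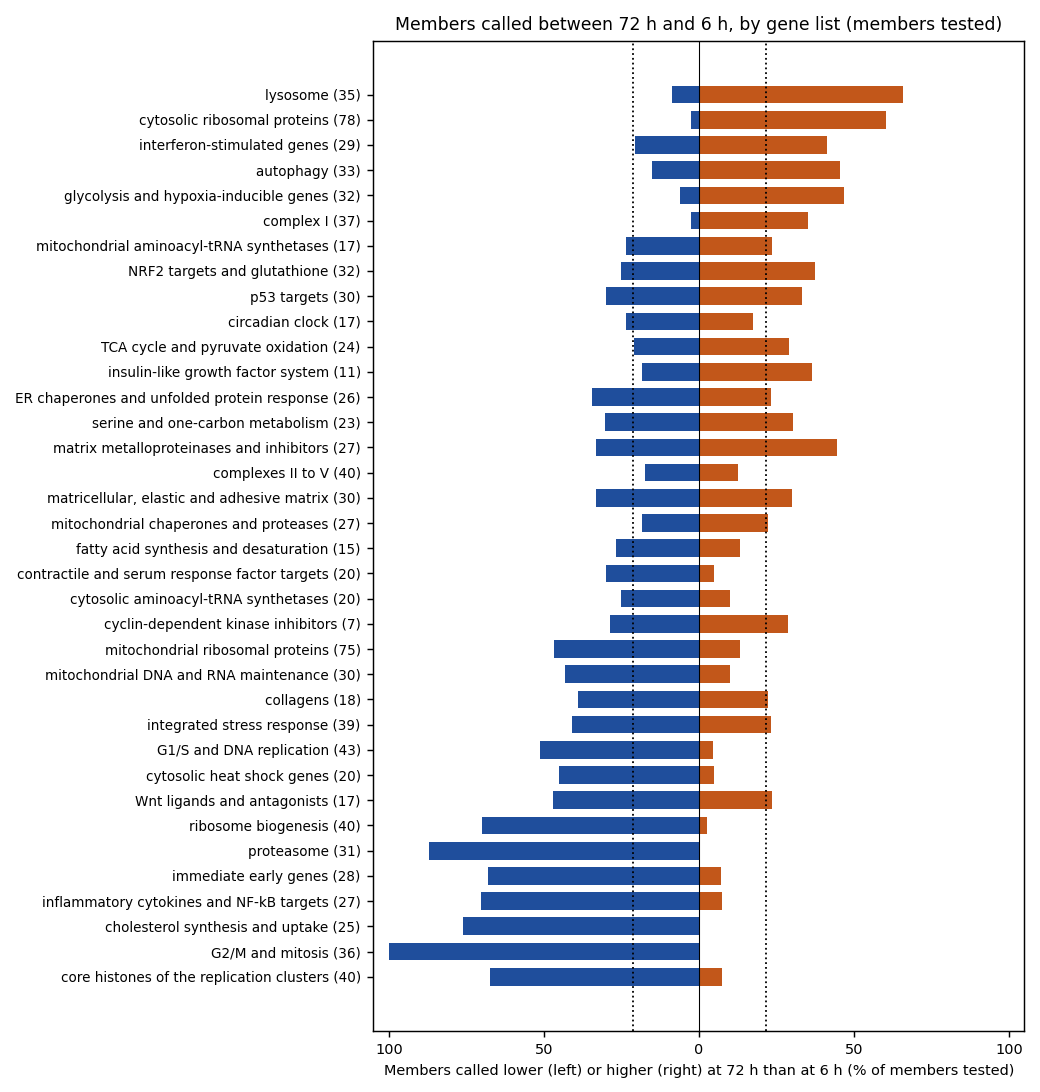
Share of the tested members of each gene list that were called higher (right) or lower (left) at 72 h than at 6 h, in percent, ordered by the median difference; dotted lines mark the shares over all genes tested, 21.5% and 21.2%. G2/M and proteasome genes reach furthest to the left, lysosome and cytosolic ribosomal protein genes furthest to the right.

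Genes of cholesterol synthesis and uptake, targets of the transcription factor SREBP2, had fallen at 6 h and fell further. Of 25 tested, 19 fell (76%, against 21.2% of all genes tested) and 0 rose between both times, with a median of -0.617. Against the control the median was -0.393 at 6 h, -0.909 at 24 h, -1.25 at 48 h and -0.996 at 72 h. Pmvk, a kinase of the mevalonate pathway, measured 13.39, 13.38, 13.53 and 13.34 at 6 h and 12.11, 12.20, 12.22 and 12.28 at 72 h, a fall of 1.21 ± 0.07 (adjusted p = 1.49e-10; -1.16 within slide 2). Lanosterol synthase, Lss, fell by 1.05 ± 0.07 from 10.66, 10.68, 10.63 and 10.51 to 9.58, 9.60, 9.55 and 9.57. In both genes the 72 h samples lay below the 6 h samples without overlap. Fdps, which makes farnesyl diphosphate, fell by 0.92 ± 0.06. The 6 members not called were Hmgcs1 (-0.37), Sc5d (-0.24), Srebf2 itself (-0.23), Ebp (-0.17), Dhcr7 (-0.12) and Tm7sf2 (0.16). Of 15 genes of fatty acid synthesis and desaturation, only 4 fell and 2 rose (26.7% and 13.3%), with a median of -0.0583. Over all genes tested these shares were 21.2% and 21.5%, and over named genes 26.5% and 23.3%. Scd1 fell by 0.54 ± 0.07 and Fasn by 0.28 ± 0.07, whereas Me1 rose by 0.24.

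The core of the sterol regulatory element was searched as TCACNCCA on both strands. It lay in the windows of 3 of 17 members with a window (17.6%) and in 4.4% of all windows, and CCAAT, the box of the partner NF-Y, in 15 of 17. The window of Msmo1 (chr8:64733529-64733828, minus strand), a sterol demethylase whose expression fell by 0.56, is shown with the match in capitals.
Msmo1: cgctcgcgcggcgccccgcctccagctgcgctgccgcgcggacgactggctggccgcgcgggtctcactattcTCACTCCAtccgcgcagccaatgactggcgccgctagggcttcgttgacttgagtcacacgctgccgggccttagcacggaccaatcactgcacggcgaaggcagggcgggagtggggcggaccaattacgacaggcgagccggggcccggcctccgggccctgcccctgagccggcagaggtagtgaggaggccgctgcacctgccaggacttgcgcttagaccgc

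Lysosomal genes rose after 6 h. Of 35 tested, 23 rose and 3 fell, a share of 65.7% higher against 21.5% over all genes, with a median of 0.488. At 6 h the median was 0.00735, at 24 h 0.384, at 48 h 0.198 and at 72 h 0.434. Tpp1, a peptidase lost in a storage disease of human neurons, measured 10.71, 10.82, 10.65 and 10.73 at 6 h and 11.88, 11.78, 11.86 and 11.79 at 72 h, a rise of 1.1 ± 0.06 (adjusted p = 1.92e-10; 1.11 within slide 2). The cathepsin gene Ctsl rose by 0.88 ± 0.07 from 14.53, 14.61, 14.46 and 14.50 to 15.38, 15.39, 15.44 and 15.40, and the acid glucosidase gene Gaa by 0.75 ± 0.06. Hexa and Neu1, which strip sugars from glycolipids and glycoproteins, rose by 0.87 and 0.77. Lipa, the acid lipase, rose by 0.92. The 3 members that fell were Ctsh (-0.20) and 2 of the transcription factors known to drive lysosomal genes, Tfeb (-0.27) and Tfe3 (-0.24). The cathepsins Ctsb and Ctsd were at 0.17 and 0.15 with no call.

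The CLEAR element through which these factors act contains the letters CACGTG, a palindrome that reads the same on both strands. They lay in the windows of 10 of 28 members with a window (35.7%) and of 7.2% of all windows. The windows of Ctsl (chr13:64370471-64370770, minus strand) and Gaa (chr11:119267713-119268012, plus strand) are shown with the match in capitals.
Ctsl: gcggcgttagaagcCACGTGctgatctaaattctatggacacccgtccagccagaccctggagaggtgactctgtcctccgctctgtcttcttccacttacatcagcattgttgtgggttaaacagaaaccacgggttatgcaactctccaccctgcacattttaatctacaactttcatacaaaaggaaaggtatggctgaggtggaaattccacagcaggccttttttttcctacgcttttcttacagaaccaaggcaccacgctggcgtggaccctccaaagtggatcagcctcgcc
Gaa: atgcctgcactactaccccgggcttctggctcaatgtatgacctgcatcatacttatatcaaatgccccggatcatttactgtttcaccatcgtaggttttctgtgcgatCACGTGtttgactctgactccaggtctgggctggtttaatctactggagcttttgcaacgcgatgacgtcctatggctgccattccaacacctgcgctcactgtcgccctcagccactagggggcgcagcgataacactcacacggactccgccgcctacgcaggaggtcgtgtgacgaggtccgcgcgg

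Of 33 autophagy genes 15 rose and 5 fell (45.5% and 15.2%), against 21.5% and 21.2% of all genes tested. Their median was 0.129. Map1lc3b, which coats autophagosomes, rose by 0.64 ± 0.06 from 12.83, 12.86, 12.86 and 12.90 to 13.57, 13.48, 13.49 and 13.50, Pink1, the kinase that marks damaged mitochondria, by 0.85 ± 0.09, and Atg14 by 0.48 ± 0.05. Their groups did not overlap on these values. Before dye and slide terms were removed, Atg14 values of 6 h (up to 10.23) and 72 h (from 10.21) met. Proteasome genes went the other way. Of 31, 27 fell (87.1%) and 0 rose, with a median of -0.306. The median against the control was 0.0331 at 6 h and -0.269 at 72 h. Psmd12, a subunit of the regulatory particle, measured 14.95, 14.93, 14.90 and 14.84 at 6 h and 14.16, 14.34, 14.29 and 14.20 at 72 h, a fall of 0.66 ± 0.06. Psmb1, Psmb6, Psmc6 and Psmd8 were not called. The immunoproteasome subunit Psmb8, an interferon-stimulated gene, rose by 0.88 ± 0.09.

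Cytosolic ribosomal proteins, which barely differed from the control at 6 h (2 of 78 up, none down), rose after 6 h. Against the control their median was 0.0401 at 6 h, 0.226 at 24 h, 0.33 at 48 h and 0.234 at 72 h. Of 78, 47 rose (60.3%) and 2 fell (2.56%, Rps2 and Rpl8), against 21.5% and 21.2% of all genes tested. Their median was only 0.179. Rps27 measured 16.61, 16.70, 16.80 and 16.77 at 6 h and 17.22, 17.19, 17.14 and 17.13 at 72 h, a rise of 0.45 ± 0.06, and Rpl13a rose by 0.34 ± 0.05. Of 20 cytosolic heat shock genes, 9 fell (45%) and 1 (5%, Hspa8) rose. Hspa4l fell by 0.85 ± 0.08, and Hspa4, a nucleotide exchange factor of Hsp70, went from 0.33 above the control at 6 h to 0.29 below it at its brightest probe. Other Hspa4 probes were at 0.17 and -0.13, neither called, and the mean over probes was at -0.191 and not called.

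Nuclear genes of mitochondrial proteins did not move as a block. Of 75 mitochondrial ribosomal proteins, 35 fell and 10 rose (46.7% and 13.3%), against 21.2% and 21.5% of all genes tested. Their median was -0.116. Mrps6 measured 15.77, 15.82, 15.84 and 15.80 at 6 h and 14.74, 14.87, 14.86 and 14.87 at 72 h, a fall of 0.97 ± 0.06, whereas Mrpl23 rose by 0.81 ± 0.06. Of 30 genes of mitochondrial DNA and RNA maintenance 13 fell and 3 rose (43.3% and 10%). Trmt10c, a subunit of mitochondrial RNase P, reversed from 0.45 to -0.24. Complex I genes, by contrast, rose in 13 of 37 (35.1%) and fell in 1 (2.7%), Ndufab1, which is also the acyl carrier protein of mitochondria. Ndufa6 rose by 0.60 ± 0.06 from 13.46, 13.47, 13.39 and 13.44 to 14.13, 14.06, 13.98 and 13.99. Its 72 h samples all lay above its 6 h samples. Of 40 genes of complexes II to V, 5 rose and 7 fell (12.5% and 17.5%), below the 21.5% and 21.2% of all genes tested.

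In the list of mitochondrial proteases and chaperones, 6 of 27 members rose and 5 fell (22.2% and 18.5%), near the 21.5% and 21.2% of all genes tested. Lonp1, the matrix protease, measured 15.40, 15.23, 15.33 and 15.47 at 6 h and 16.02, 15.97, 16.03 and 16 at 72 h. It rose by 0.65 ± 0.07 to 1.41 above the control, and the Hsp70 of the matrix, Hspa9, rose by 0.51 ± 0.07. Immp2l, a peptidase of the inner membrane, rose by 1.17 ± 0.06, and Metap1d, the mitochondrial methionine aminopeptidase that acts after the deformylase, by 0.47 ± 0.07. Of 32 NRF2 targets and glutathione genes, 12 rose and 8 fell (37.5% and 25%), against 21.5% and 21.2% of all genes tested. Their median was 0.0374. Glutathione transferases were among those that rose, Gsta4 by 1.21 ± 0.07, Gsta1 by 1.62 ± 0.09 and Gsta2 by 1.55 ± 0.09, the last 2 with near-identical sequences whose probes may share signal. Their peak was at 24 h, with 2.49 for Gsta1 and 2.57 for Gsta2. Gstm1 was below the control at 6 h (-0.37), rose by 0.52 ± 0.07 and was not called at 72 h (0.15).

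**Figure D5:**
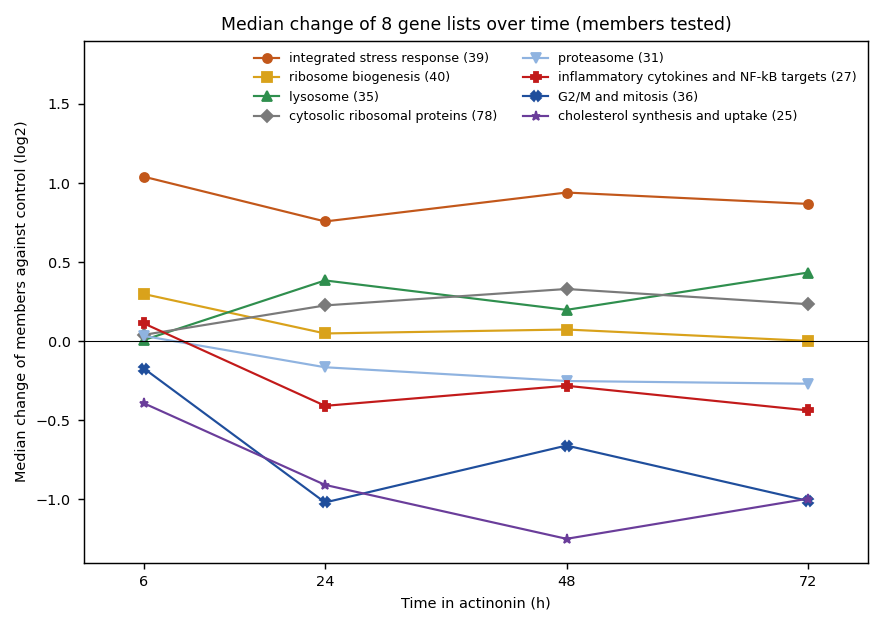
Median change of the tested members of 8 gene lists against the carrier control (y axis, log2) at 6, 24, 48 and 72 h of actinonin (x axis); numbers in the key are members tested. The integrated stress response is highest at 6 h, G2/M and cholesterol genes drop at 24 h, and ribosome biogenesis comes back to about 0.

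Immediate early genes, which respond to growth factors within minutes, fell in 19 of 28 and rose in 2, Jund by 0.53 and Dusp1 by 0.35. The median was -0.389, and the shares were 67.9% lower and 7.14% higher, against 21.2% and 21.5% of all genes tested. Klf10 measured 13.23, 13.32, 13.11 and 13.22 at 6 h and 11.54, 11.56, 11.61 and 11.61 at 72 h, a fall of 1.64 ± 0.08 (adjusted p = 4.71e-11). Egr2 fell by 1.63 ± 0.10, with 72 h samples spread from 7.74 to 8.24, and Jun, a subunit of AP-1, by 1.16 ± 0.08. Fosl1 was 0.31 above the control at 6 h and 1.23 below it at 72 h. Interferon-stimulated genes rose in 12 of 29 and fell in 6, with a median of 0.129. These shares were 41.4% and 20.7%, against 21.5% and 21.2% of all genes tested. Bst2, which tethers budding viruses, rose by 0.93 ± 0.08, and Cxcl10, of the same list, fell as described.

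Matrix and growth factor genes differed by member. Among 18 collagens 4 rose and 7 fell (22.2% and 38.9%), against 21.5% and 21.2% of all genes tested. Col18a1, the precursor of endostatin, rose by 0.94 ± 0.06 from 13.66, 13.83, 13.73 and 13.69 to 14.74, 14.70, 14.65 and 14.58. Col5a3 rose by 0.91 ± 0.09, and Col7a1, of anchoring fibrils, fell by 1.07 ± 0.08. The fibroblast marker Col1a1 fell by 0.60 ± 0.09. The microfibril gene Fbn2 rose by 1.44 ± 0.08 and Ltbp2 fell by 1.03 ± 0.08. Of 27 matrix metalloproteinases, related proteases and inhibitors, 12 rose and 9 fell (44.4% and 33.3%). Among them were Mmp11 with a rise of 1.25 ± 0.06, Timp3 with one of 0.76 ± 0.06 and Adam12 with a fall of 0.95 ± 0.07. Igf1 measured 9.29, 9.56, 9.16 and 9.30 at 6 h and 7.92, 7.79, 7.71 and 7.82 at 72 h, a fall of 1.52 ± 0.08. Its groups did not overlap. Of its other probes 1 fell by 1.39, but 1 fell by only 0.48 and 1 was at -0.10 and not called. Igf2r, the receptor that clears the related factor IGF2, rose by 0.74 ± 0.06. Of 17 Wnt ligands and antagonists 4 rose and 8 fell (23.5% and 47.1%), against 21.5% and 21.2% of all genes tested. Nkd1, an intracellular inhibitor of the pathway, rose by 1.43 ± 0.10 at its brightest probe, while another was at 0.26 and not called, and the secreted antagonist Dkk2 fell by 0.98 ± 0.09. Of the fibroblast markers 7 fell and 1, Lum, rose, and the part of their lower level in these differences was not tested.

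Held changes were those with no called difference between both times. Besides the stress response genes named above, Apobec1, a cytidine deaminase, measured 11.27, 11.04, 10.97 and 11.40 at 6 h and 11.15, 11.07, 11.05 and 11.02 at 72 h. It stood 1.52 and 1.44 above the control, and its groups overlapped. Soat2, which esterifies cholesterol, stood at 1.48 and 1.27 and Maats1, a ciliary protein, at 1.58 and 1.93. Among held falls, the heat-inducible chaperone Hspa1a, which has a near-identical copy, was at -1.02 and -0.78, the small LIM protein Crip1 at -0.86 and -0.86, and Txnip, an inhibitor of thioredoxin and of glucose uptake, at -0.82 and -0.73. Irs1, an adaptor of the insulin receptor, was at -0.74 and -0.73, Cdc42ep2 at -0.74 and -0.67 and the endoplasmic reticulum cofactor Sdf2l1 at -0.78 and -0.95. With slide 2 alone, or with only the 8 samples of both times, the differences of Apobec1, Soat2 and Hspa1a were called, at -0.254, -0.42 and 0.359 with slide 2 alone.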

How the data were processed

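Total RNA of 20 samples was measured on 10 Agilent arrays with 1 sample per colour channel. Per the file headers, the deposited intensity values are median pixel signals of each spot and its local background, read with Feature Extraction 10.7.3.1 on slide 1 and 11.0.1.1 on slide 2, and not normalized. The value table deposited by the authors is on a log2 scale and follows the same channels (column medians 6.90 to 6.91, correlation 0.9986 or more with log2 of the own channel). Per the submitters' processing notes R 2.15 and limma were used, and which steps were run is not given.

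In R 4.3.3 with limma 3.58.1, the background was corrected by normexp with an offset of 50, colours were balanced by loess within each array, and arrays were scaled by Aquantile. Probes that stood well above background in 4 or more of the 20 samples were kept. The brightest probe stood for each gene, named through RefSeq accessions (GRCm38.p6, 26582 of 28116 probes with an accession); other transcripts stayed unnamed. Over all samples, limma fitted group, dye and slide and took the array as a random effect (correlation 0.25; 13 residual and 4.48 prior degrees of freedom). Tests were 2-sided and adjusted by Benjamini-Hochberg over 24250 genes and transcripts, with calls under 0.05; the procedure was tested on simulated data. Dye and slide terms were past this threshold for 6397 and 10645 transcripts. The number of arrays limits the precision. A change shared by most genes would not be seen after these normalizations.

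Of other probes of called genes, 81.9% went the same way, and values of a gene are those of its brightest probe. The members of the 44 gene lists and the rules were chosen with earlier results of these data known. Genes were named by rule. The rules took the 10 largest rises and falls without overlap between both times, and up to 3 bounded genes a direction. They also took up to 6 per class and direction, up to 4 per list by adjusted p, stress hormones, kinase inhibitors and Pdf. Other list members named were chosen after their values were seen. Alternatives covered the slide, dye and array terms, scaling, background, filters, probes, samples and the call rule. Mitochondrially encoded mRNAs were not analysed here. Some list members are counted but not named here.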

Additional observations from a re-analysis of the deposited data

Results flagged for a closer look

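Among 230 groups of 4 samples examined (list mean levels and named genes at 6 h and at 72 h), 18 held a sample whose gap to its nearest neighbour took up more of the group's range than Dixon's critical value allows. Chance flags about 1 in 20 groups. The 6 h sample of replicate 1 in Cy5, on slide 1, accounted for 8 of the 18. It stood apart for Car6 (8.33 against 7.71 to 7.78 in the other 3, gap 0.891 of the range), Cck (12.63 against 12.44 to 12.47, 0.859), Arid5a (12.99 against 13.14 to 13.16, 0.847), Adm2 (8.58 against 9.16 to 9.22, 0.91), Nfil3 (13.19 against 13.41 to 13.45, 0.843) and Pcdhb21 (11.17 against 11.06 to 11.07, 0.885). The mean levels of cyclin-dependent kinase inhibitors (12.04 against 11.98 to 11.99, 0.831) and of adipocyte markers (8.86 against 8.93, 0.951) stood apart in that sample too.

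The 6 h sample of replicate 2 in Cy3, also on slide 1, stood apart for Tcim (9.23 against 9.01 to 9.05, 0.845), Adcyap1r1 (10.82 against 10.36 to 10.43, 0.85) and the mean of endoplasmic reticulum chaperones (12.61 against 12.54 to 12.55, 0.835). At 72 h, replicate 1 in Cy3 was low for ribosome biogenesis genes (12.68 against 12.71 to 12.72, 0.845) and high for Cirbp (13.07 against 12.91 to 12.93, 0.857), and replicate 1 in Cy5 was low for Wdr6 (11.02 against 11.08 to 11.09, 0.839). Replicate 2 in Cy3 was high for mitochondrial aminoacyl-tRNA synthetases (10.53 against 10.51, 0.851) and low for complex I (14.10 against 14.15, 0.927). Replicate 2 in Cy5 was low for matrix metalloproteinases (10.78 against 10.84 to 10.86, 0.832) and high for immediate early genes (10.39 against 10.32 to 10.33, 0.871).

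Genes whose change at 6 h and at 72 h had opposite signs were flagged with the tested difference between both times. Those that went up and then down were Mmp9 (-1.263), Sphk1 (-1.256), Rbfox1 (-1.514), Map2k3os (-1.573), Tcim (-1.211) and Serpina3f (-1.867). Those that went down and then up were Lrrn3 (1.352), Adamts1 (1.743), Zfp467 (0.9735), Cirbp (1.301), Bnip3 (1.324) and Pcdhb21 (0.8461). The 6 h change itself differed between slides for Apobec1 (slide 1 minus slide 2, -0.6426) and Cox6a2 (-0.8156), each at an adjusted p of 0.0467 from the interaction of slide and time in limma. On slide 1 the 6 h samples shared arrays with controls and on slide 2 with samples of 48 h, so slide and array pairing cannot be told apart.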

How the results depend on the processing

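Counts of called transcripts moved by over 1.5 times under the alternatives that follow. With slide 2 alone, the transcripts lower at 6 h and higher at 72 h numbered 172 instead of 309. Without the slide term they numbered 183, and the early falls that built up 513 instead of 815. Without scaling between arrays, 3320 transcripts were called lower at 72 h, reversal numbered 207 (up, then down) and 148 (down, then up), fading 389 (up at 6 h) and 154 (down at 6 h), early falls that built up 419 and held falls 494. The cause of these shifts was not tested. With an adjusted p under 0.01 and at least 2-fold, 469 transcripts differed between 72 h and 6 h, 215 higher and 254 lower, against 73 at 6 h and 710 at 72 h against the control. The classes under that rule, which asks for 2-fold in each comparison, were reversed 0 and 1, faded 7 (up) and 2 (down), built up from an early start 4 (up) and 0 (down), built up from a late start 172 (up) and 187 (down), and held 40 (up) and 0 (down). Leaving out 1 sample at a time gave 8871 to 10573 called transcripts, and 197 to 317 for those lower at 6 h and higher at 72 h. The count of 197 came without the control sample of replicate 2 in Cy5 and is the only one of these counts that moved by over 1.5 times. Same-numbered samples of 6 h and 72 h share only a number, with deviations correlated at -0.0522 to 0.0238. With the replicate number as a block, 10067 transcripts were called, 4987 higher and 5080 lower at 72 h, and among 232 named genes this block ended the call of Cebpa alone. Over these 232 genes and all alternatives, 5931 of 6015 values kept their direction and call, 53 lost the call, 30 gained one and 1 reversed: Snap25 at 0.0313 without the slide term. The median of a list changed sign under some alternative for 12 of 44 lists, among them metalloproteinases (-0.0474 to 0.255), glutathione genes (-0.00387 to 0.0834), mitochondrial chaperones (-0.0549 to 0.0105) and the clock (-0.0391 to 0.0905). The fit on only the 8 samples of both times had 1 sample per array and therefore no array block.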

Other observations

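At 72 h, several genes had the same order of samples. Replicate 1 in Cy3 was highest and replicate 2 in Cy5 lowest for Adamts1 (13.48 and 12.92), Adamts5 (9.33 and 8.68), Tenm4 (14.65 and 14.14), Rspo3 (12.69 and 11.98), Lrrn3 (11.08 and 10.35) and Ppp1r3c (9.14 and 8.61). These genes were chosen after their values were seen. For each of the 6, all 72 h samples lay above all 6 h samples once dye and slide terms were removed. Before that, both times overlapped for Adamts5 and Ppp1r3c.

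Wnt pathway genes gave both directions, with Rspo3 (2.65 ± 0.15) and Nkd1 (1.43 ± 0.10, with 0.26 and no call at another probe) among the rises and Dkk2 (-0.98 ± 0.09) and Lef1 (-0.89 ± 0.07) among the falls. Clock genes did so as well: Dbp, an output gene, rose by 0.85 ± 0.09, and Nr1d1, a repressor of Arntl, fell by 0.56 ± 0.07 while Arntl fell by 0.82 ± 0.06. Of the adipocyte markers, Fabp4 was at least 1.76-fold lower, not well above background in any 72 h sample, and Pparg fell by 0.80 ± 0.06, whereas the lipase gene Lpl rose by 0.73 ± 0.09. In the list of 23 serine and folate genes 7 rose and 7 fell, with a median of -0.015 that changed sign in 9 alternatives. Each share was 30.4%, against 21.5% higher and 21.2% lower of all genes tested. The largest falls were those of Shmt1 (-0.41 ± 0.08) and Mthfd2 (-0.35 ± 0.09). Sardh, a mitochondrial sarcosine dehydrogenase, rose by 0.74 ± 0.08 and Aldh1l2, a mitochondrial folate enzyme, rose by 0.73 ± 0.10 from 13.30, 12.93, 13.19 and 13.34 to 13.89, 13.88, 13.94 and 13.94.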
